A study of Bos taurus with 12 samples.

Results

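Glutathione S-transferases are described here by 10 genes, GSTA1, GSTA2 and GSTA4 of the alpha class, GSTM1 and GSTM3 of the mu class, GSTO1 of the omega class, GSTP1 of the pi class, GSTK1 of the kappa class, and the membrane enzymes MGST1 and MGST2. They were chosen by name, and all 10 were matched by symbol or synonym to a gene ID among the 30336 IDs counted, of which 21227 had at least 1 read. All 10 passed the filter on low counts and were tested among 13212 genes. The tissue was liver, taken by puncture biopsy at 4 d of age from Holstein heifer calves that were fed and managed alike after birth. The CON calves were born to cows that received the basal close-up diet without added methionine. The MET calves were born to cows that received the same diet plus methionine protected from the rumen by ethyl cellulose over the last 28 d of gestation. The treatment was therefore given to the dam only, and the comparison asks whether hepatic mRNA of the transferases differed in the calf.

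Glutathione S-transferases join the thiol of glutathione to electrophilic compounds, which makes drugs, pollutants and products of lipid peroxidation more soluble and marks them for export. The cytosolic enzymes work as dimers, and their classes differ in sequence, in substrates and in the tissues that make them. The kappa enzyme belongs to mitochondria and peroxisomes, and the microsomal enzymes are membrane proteins of a separate family. Alpha enzymes are abundant in the liver cell, and many transferase genes are induced by the transcription factor NFE2L2, which responds to electrophiles, and by receptors for foreign compounds.

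Poly(A) RNA of 12 libraries, 6 per maternal diet, was sequenced on 1 lane, and between 8277789 and 10397604 reads per library were assigned to genes, so that 3 reads, the floor used here, equalled 0.289 to 0.362 CPM, the count scaled to a common library total. This floor allows for counting error alone, as no molecular identifiers were used. Sampling noise accounted for nearly all of the difference between the libraries of CON replicates 1 and 4, with a chi-square of 1.33 per gene, and between those of MET replicates 1 and 3, with 1.24, against 25.1 to 132.9 in the other 64 pairs. Each of these pairs was therefore counted as 1 sample, which left 5 samples per diet for means and standard deviations, and the transferases were tested both over the 12 libraries and over these 10 samples. Effects of the first sequencing index and of the diet cannot be told apart, because all 6 CON libraries had the same one and all 6 MET libraries a different one. All 10 hepatocyte markers were found in every sample, with a summed level of 157053 to 217056 CPM in CON and 128205 to 172044 CPM in MET. In RNA of whole tissue, fewer cells of a type and less RNA per cell cannot be told apart.

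GSTO1 was the only transferase that differed between the diets at an adjusted p of at most 0.10. By edgeR it passed over the 12 libraries and not over the 10 samples, where DESeq2 passed it. It encodes the omega enzyme, which has a cysteine at its active site and reduces dehydroascorbate and mixed disulfides. GSTA1, GSTA2 and GSTM3, which had the highest mean levels per kb of exon sequence over all samples, did not pass the test, and their intervals ran from a reduction to an increase. GSTK1 and MGST1 had nearly the same mean in both diets. MGST2 had 74.2 ± 11.3 CPM in CON and 84.1 ± 22.6 CPM in MET and did not pass the test. The SDs of GSTA1 and GSTA2 were larger in MET than in CON and those of GSTA4, GSTM1 and GSTM3 smaller, and these differences were not tested.

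Levels of the 10 genes were compared per kb of exon sequence, averaged over the 10 samples of both diets. GSTA1 stood highest with 355 ± 150 CPM per kb (SD, n = 10), and GSTA2 followed with 291 ± 110 CPM per kb. Both encode alpha subunits of the liver cytosol, and GSTA1 was the higher in 7 of 10 samples. By diet, GSTA1 had 421 and GSTA2 315 CPM per kb in CON, against 288 and 267 CPM per kb in MET, where GSTA1 was the lower in 3 of 5 samples. GSTM3, a mu enzyme, had 132 ± 58.5 CPM per kb and was below GSTA2 in all 10 samples. MGST1, which lies in the membranes of the endoplasmic reticulum and mitochondria and also reduces lipid peroxides, had 106 ± 24.3 CPM per kb, and in MET its mean equalled that of GSTM3 at 104 CPM per kb. GSTK1 had 65.2 ± 9.11 CPM per kb. GSTA4, the alpha enzyme that acts on 4-hydroxynonenal, had 46.4 ± 18.1 CPM per kb, and MGST2, which can make leukotriene C4, had 40.9 ± 9.12 CPM per kb. By diet, GSTA4 and MGST2 had 50.3 and 38.4 CPM per kb in CON, and 42.5 and 43.5 CPM per kb in MET. GSTM1 had 32.4 ± 16.4 CPM per kb. GSTO1 and GSTP1 stood lowest with 12.4 ± 7.78 and 1.64 ± 0.755 CPM per kb. Each gene's range over the 10 samples overlapped that of its neighbor in this order, although GSTA2 exceeded GSTM3, and GSTM1 exceeded GSTO1, in 10 of 10 samples.

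**Figure D1:**
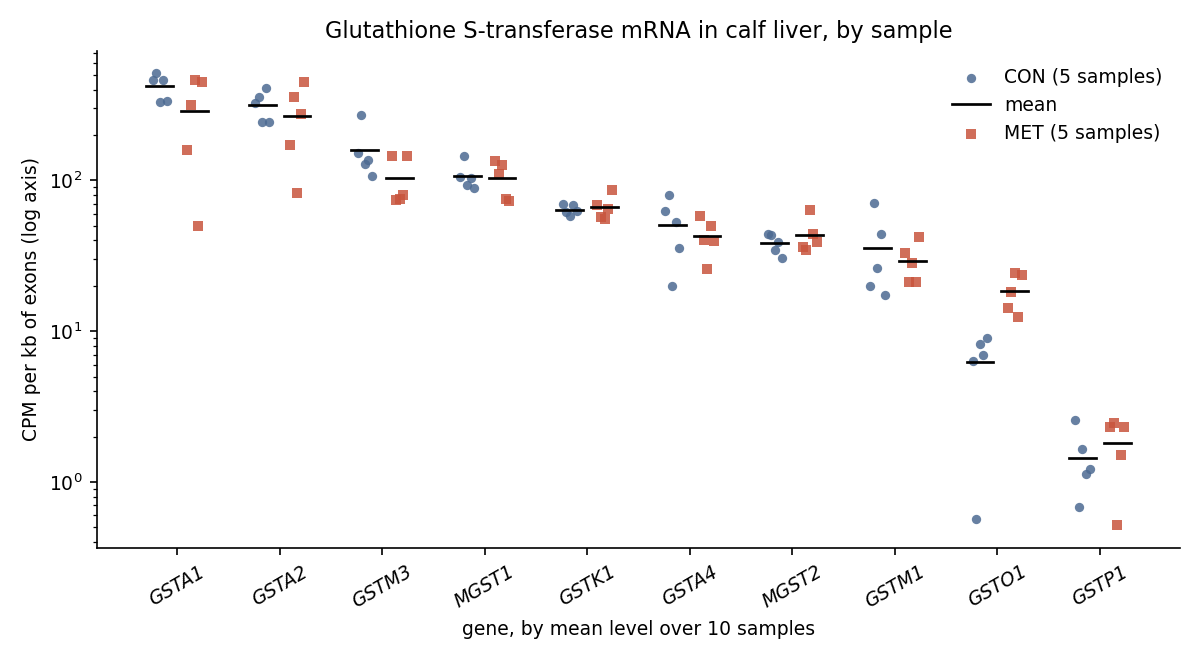
Level of each of the 10 transferase genes in CPM per kb of exons, on a log axis, with 1 point per sample (circles, 5 CON samples; squares, 5 MET samples) and a bar at the mean of each diet. GSTO1 is the only gene whose MET points all lie above its CON points, and its CON replicate 2 lies far below the rest at 0.57 CPM per kb.

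Summed over the 10 genes, the level was 1199 ± 261 CPM per kb in CON and 965 ± 253 CPM per kb in MET (SD, n = 5 each), and the ranges of 934 to 1547 and 675 to 1350 CPM per kb overlapped. The 3 alpha genes made up 65.6 ± 3.46% of that sum in CON and 60.4 ± 9.38% in MET. The mu genes gave 15.9 ± 3.78% and 14.1 ± 4.79%, and the microsomal genes 12.2 ± 0.998% and 16.2 ± 5.11%. The kappa gene gave 5.52 ± 1.02% and 7.13 ± 1.71%. The omega gene gave 0.581 ± 0.366% in CON and 1.94 ± 0.357% in MET. The alpha share therefore spread more widely among MET samples, from 47.3 to 69.5%, than among CON samples, from 61.4 to 69.7%.

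GSTO1 (Entrez gene 505642; assembly UMD 3.1.1, chr26:25088448-25097722, plus strand, 6 exons, 882 bases of exon sequence) was counted with 1223 reads in all. In CON it had 5.59 CPM in the sample of replicates 1 and 4, 0.503 CPM in replicate 2, 7.21 CPM in replicate 3, 6.15 CPM in replicate 5 and 7.99 CPM in replicate 6. In MET it had 12.5 CPM in the sample of replicates 1 and 3, 16.1 CPM in replicate 2, 21.5 CPM in replicate 4, 11.0 CPM in replicate 5 and 20.9 CPM in replicate 6. Every MET sample was above every CON sample, and CON replicate 2, with 4 reads, was the lowest by far. Samples of the diets did not overlap in either direction at 3.71% of all genes tested, and among the transferases this held for GSTO1 alone.

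The mean of GSTO1 was 5.49 ± 2.94 CPM in CON and 16.4 ± 4.78 CPM in MET (SD, n = 5 each). Over the 12 libraries the log2 fold change of MET over CON was 1.51 with an SE of 0.37 and a 95% interval of 0.72 to 2.29, and the p adjusted over all genes tested was 0.0692 (edgeR's quasi-likelihood test, Benjamini-Hochberg method). Over the 10 samples the log2 fold change was 1.56 with an SE of 0.43 and an interval of 0.64 to 2.49, and the edgeR adjusted p was 0.175, above the threshold of 0.10. Without CON replicate 2 the log2 fold change was 1.27 over the 12 libraries, with an edgeR adjusted p of 0.0452, and 1.28 over the 10 samples, with an edgeR adjusted p of 0.214. Over the 12 libraries the call was lost without CON replicate 1, CON replicate 4, MET replicate 4 or MET replicate 6, with edgeR adjusted p-values of 0.123, 0.132, 0.108 and 0.107, with library size as the only scaling, with 0.101, and with the gene length trend removed, with 0.111. Over the 10 samples DESeq2 gave a log2 fold change of 1.58 and an adjusted p of 0.0253. The size of the difference thus moved little with the handling of near-identical libraries. The call over the 10 samples was lost by edgeR and by limma with voom (adjusted p = 0.18) and held by DESeq2. Of 20 alternatives there, DESeq2 was the 1 that passed. GSTO1 is in the study's own list of differentially expressed genes, which was made on these libraries, so that its call here is not independent evidence of its direction.

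The next gene on chromosome 26, GSTO2, encodes the other omega enzyme and starts 1371 bases beyond the end of GSTO1 on the same strand. It had 2 reads in all 12 libraries, and so the omega signal of these livers came from GSTO1. Of the 10 macrophage markers, each had a higher mean in MET, and 2 of them, C1QC and C1QB, rose at an edgeR adjusted p of at most 0.10 over the 12 libraries, where 4.41% of all genes were called, and none did over the 10 samples. The summed level of the 10 markers was 1393 to 1857 CPM in CON and 1649 to 2191 CPM in MET, and none was at 0. Erythroid markers summed to 1104 CPM in CON replicate 2, the sample with the least GSTO1, and to 20.5 to 603 CPM in the other 9 samples. Neutrophil markers, 4 of 6 tested, had log2 fold changes above 0 in all 4, with a median of 1.152 and none called. They summed to 14.2 to 49.7 CPM in CON and 17.6 to 148 CPM in MET. The highest sum in MET was that of replicate 4, followed by replicate 5 with 60.0 CPM, and the highest in CON was that of replicate 2. Lymphocyte markers, 6 of 8 tested, were likewise above 0 in all 6, with a median of 0.369 and none called, and summed to 41.5 to 64.4 CPM in CON and 56.4 to 72.7 CPM in MET. Stellate cell and fibroblast markers were below 0 in 8 of 8, and LUM fell over the 12 libraries by edgeR (adjusted p = 0.0985) but not over the 10 samples (0.211), with sums of 620 to 911 CPM in CON and 457 to 755 CPM in MET. The 8 endothelial markers, FCN3 at or near 0 among them, gave 295 to 494 and 274 to 460 CPM. The part of these cells in the GSTO1 result was not tested.

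Of the 10 transferases, 1 passed an adjusted p of 0.10 over the 12 libraries by edgeR, where 4.41% of all genes tested passed. Over the 10 samples no transferase passed by edgeR, where 0% of all genes passed, 1 of 10 reached p of 0.05 or less before adjustment, where 16.4% of all genes did. DESeq2 passed 1 of 10 over the 10 samples, where it passed 4.72% of all genes. The log2 fold change over the 12 libraries was above 0 for 5 of the 10 genes and below 0 for 5. The median log2 fold change of the 10 genes was -0.064 over the 12 libraries and -0.142 over the 10 samples, against -0.003 and -0.002 for all genes tested. Each count of 1 transferase was GSTO1.

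**Figure D2:**
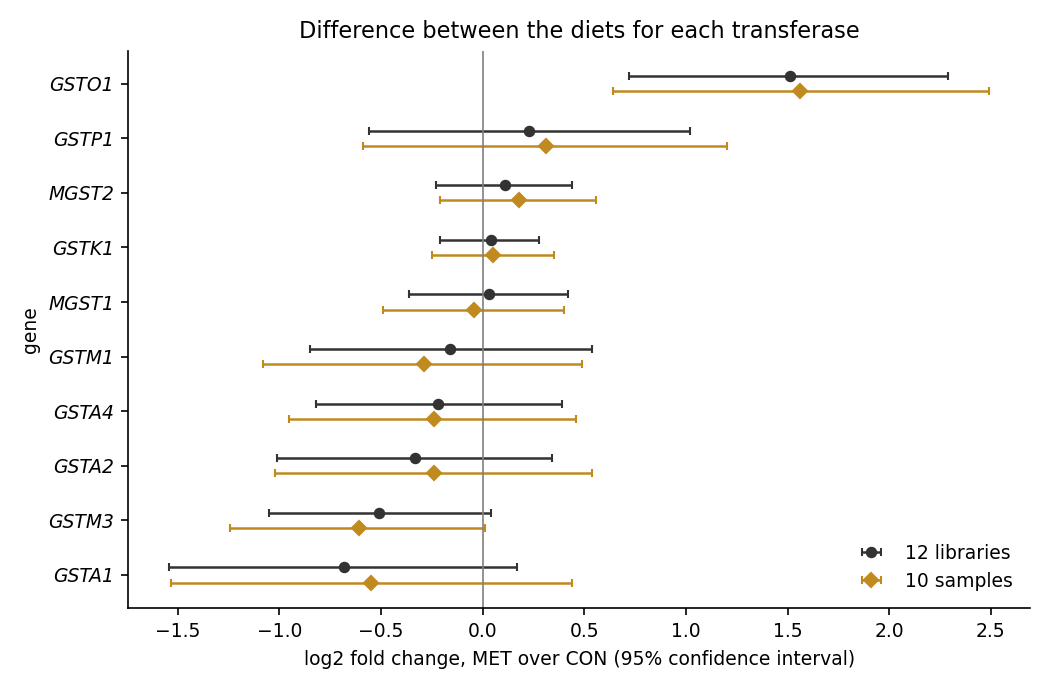
Log2 fold change of MET over CON for each transferase, with its 95% interval, over the 12 libraries (circles) and over the 10 samples (diamonds). The interval of GSTO1 lies above 0 in both fits, from 0.72 and from 0.64 upward, and those of the other 9 genes include 0.

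The alpha genes lie together on chromosome 23, all on the minus strand and within 154 kb, in the order GSTA2, GSTA1, GSTA5, GSTA3 and GSTA4. GSTA2 (Entrez gene 281805) lies at chr23:24823645-24837368, GSTA1 (777644) at chr23:24875605-24890466 and GSTA4 (533917) at chr23:24963224-24977368, in UMD 3.1.1. The genes between GSTA1 and GSTA4 were hardly counted, with 41 reads in all for GSTA5 and 287 for GSTA3, against 30755 for GSTA1 and 30386 for GSTA2. Nearly all counted reads of this cluster were thus those of GSTA1, GSTA2 and GSTA4. GSTA1 and GSTA2 are close paralogs, and reads that matched more than 1 place had been left out by the authors, so that reads the paralogs share are in the counts of neither. Any reads shared with the other alpha genes are likewise uncounted. The levels per kb and the ratios of alpha genes leave all such reads out.

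GSTA1 had 369, 411, 266, 370 and 271 CPM in the CON samples of replicates 1 and 4, 2, 3, 5 and 6, in this order. In the MET samples of replicates 1 and 3, 2, 4, 5 and 6 it had 128, 252, 373, 39.6 and 361 CPM. MET replicate 5 was the lowest by far, MET replicate 2 and replicates 1 and 3 were also below every CON sample, and MET replicates 4 and 6 were within the CON range. The means were 337 ± 65.3 CPM in CON and 231 ± 146 CPM in MET (SD, n = 5 each). For GSTA1 the log2 fold change was -0.68 in the 12 libraries (SE 0.40, 95% interval -1.54 to 0.17, edgeR adjusted p = 0.351) and -0.55 over the 10 samples (SE 0.45, interval -1.53 to 0.44, edgeR adjusted p = 0.575). Without MET replicate 5 it was -0.465 and -0.281.

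GSTA2 had 309, 340, 232, 388 and 234 CPM in the CON samples, in the same order, and 165, 339, 79.0, 264 and 426 CPM in the MET samples. Here MET replicate 4 was the lowest sample and MET replicate 6 the highest, and the diets overlapped. The means were 300 ± 67.8 CPM in CON and 254 ± 137 CPM in MET. The log2 fold change was -0.33 over the 12 libraries (SE 0.31, interval -1.01 to 0.34, edgeR adjusted p = 0.580) and -0.24 over the 10 samples (SE 0.36, interval -1.02 to 0.54, edgeR adjusted p = 0.776). Without MET replicate 4 it was -0.152 and -0.011, and without MET replicate 6 it was -0.581 and -0.507.

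The lowest samples of GSTA1 and GSTA2 were different ones. Per kb of exon sequence, GSTA1 was 1.13 to 1.44 times GSTA2 in the 5 CON samples. In MET the ratio was 0.922 in the sample of replicates 1 and 3, 0.886 in replicate 2 and 1.01 in replicate 6, but 5.62 in replicate 4 and 0.178 in replicate 5. MET replicate 4 was thus low in GSTA2 alone and MET replicate 5 low in GSTA1 alone, while MET replicates 1 and 3 were low in both. The sum of both genes was 548 CPM per kb in MET replicate 4 and 327 CPM per kb in MET replicate 5, against 575 to 870 CPM per kb in CON. Whether sequence differences between calves moved reads between these paralogs, or out of the counts, was not tested. MET replicates 4 and 5 also stood apart over all genes, with chi-squares of 48.3 to 82.1 and 52.0 to 132.9 per gene against other libraries. Among the remaining libraries these were 25.1 to 54.8, outside the near-identical pairs. The part of this in the ratios was not tested.

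**Figure D3:**
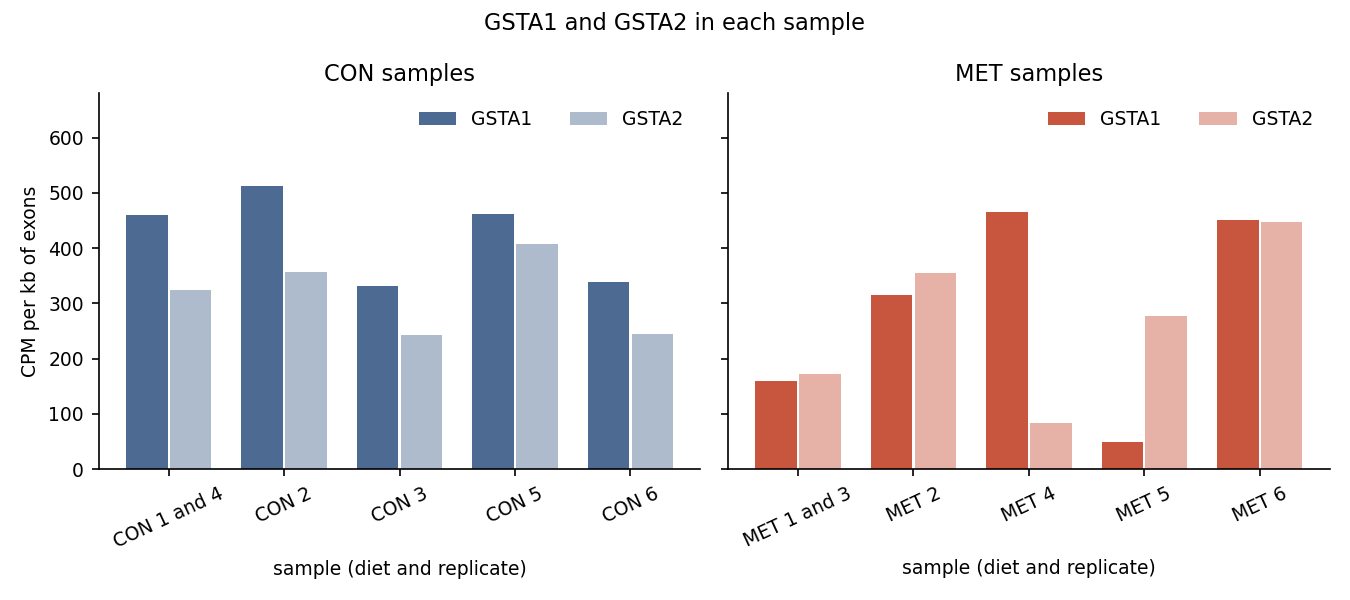
GSTA1 (dark bars) and GSTA2 (light bars) in CPM per kb of exons in each of the 5 CON samples (left) and 5 MET samples (right). The pair keeps a ratio of 1.13 to 1.44 in CON, whereas MET 4 has 5.62 and MET 5 has 0.178.

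GSTA4 had 99.9, 129, 31.9, 85.4 and 56.5 CPM in the CON samples and 92.2, 64.2, 41.1, 79.1 and 63.0 CPM in the MET samples. CON replicate 3 was the lowest and CON replicate 2 the highest of all 10, so that the MET values lay within the CON range. For GSTA4 the log2 fold change was -0.22 over the 12 libraries, with an interval of -0.82 to 0.39 and an edgeR adjusted p of 0.704 (0.745 over the 10 samples). It was -0.053 without CON replicate 2 and -0.385 without CON replicate 3.

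The mu genes lie on chromosome 3 within 113 kb. GSTM3 (Entrez gene 615507, chr3:33768050-33770824) is on the plus strand, and GSTM1 (327709, chr3:33805751-33816442), GSTM2 and LOC783879 follow on the minus strand. GSTM1 was found in the table of names only as a synonym of LOC327709, and LOC783879 lists the same synonym, so that the assignment of this name is uncertain. LOC783879 was counted with 917 reads in all, with 8.95 ± 4.17 CPM in CON and 7.75 ± 1.79 CPM in MET.

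GSTM3 had 111, 200, 94.0, 99.6 and 77.9 CPM in the CON samples and 107, 54.3, 54.7, 58.2 and 106 CPM in the MET samples. Of the MET samples 3 were below every CON sample, and the remaining 2 were inside the CON range. The means were 116 ± 48.0 CPM in CON and 76.1 ± 27.9 CPM in MET. Its log2 fold change was -0.51 in the 12 libraries (SE 0.25, interval -1.05 to 0.04, edgeR adjusted p = 0.273) and -0.61 over the 10 samples (SE 0.29, interval -1.24 to 0.01, edgeR adjusted p = 0.316). Without CON replicate 2 the log2 fold change of GSTM3 was -0.279 over the 12 libraries and -0.332 over the 10 samples.

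GSTM1 had 22.9, 81.1, 29.9, 50.6 and 19.8 CPM in the CON samples and 37.4, 24.2, 32.5, 24.1 and 47.8 CPM in the MET samples. CON replicate 2 had the most of both mu genes. The log2 fold change of GSTM1 was -0.16 over the 12 libraries, with an interval of -0.85 to 0.54 and an edgeR adjusted p of 0.827 (0.721 over the 10 samples), and without CON replicate 2 it was 0.215. Per kb of exon sequence, GSTM3 was 3.08 to 7.57 times GSTM1 in CON and 2.63 to 4.46 times in MET. Unlike the alpha pair, the mu pair held its order in every sample.

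GSTP1 encodes the pi enzyme, which in adult human liver is made by bile duct cells more than by hepatocytes. The gene with this symbol (Entrez gene 525938, chr29:46054556-46057356) had 226 reads in all, with 1.61 ± 0.795 CPM in CON and 2.03 ± 0.913 CPM in MET. Its lowest samples were MET replicate 4 with 0.576 CPM and CON replicate 2 with 0.754 CPM, and the diets overlapped. For GSTP1 the log2 fold change was 0.23 over the 12 libraries, with an interval of -0.56 to 1.02 and an edgeR adjusted p of 0.764 (0.749 over the 10 samples). It was 0.081 without CON replicate 2, 0.443 without CON replicate 4 and 0.419 without MET replicate 4.

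A second gene, LOC281806, starts 29.8 kb beyond GSTP1, at chr29:46087142-46090009, and carries GSTP1 as an older symbol. It was counted with 3064 reads, against 226 for the gene now named GSTP1, so that which of them is read as GSTP1 sets the level of the pi class. LOC281806 had 25.9 ± 7.44 CPM in CON and 29.6 ± 3.64 CPM in MET, and its log2 fold change over the 12 libraries was 0.25 (SE 0.17, edgeR adjusted p = 0.429, and 0.627 over the 10 samples). Of the bile duct markers, 7 of 8 were tested and 2 of them, ANXA4 and CFTR, fell at an edgeR adjusted p of at most 0.10 over the 12 libraries, against 4.41% of all genes called, and none did over the 10 samples, while CLDN4 had 19.5 ± 7.48 CPM in CON and 28.1 ± 11.3 CPM in MET (edgeR adjusted p = 0.436). The 8 markers summed to 290 to 335 CPM in CON and to 228 to 263 CPM in MET, and none was at 0. ANXA4 alone gave 211 ± 13.4 CPM in CON and 158 ± 9.12 CPM in MET. Neither pi gene passed the test, and the part of bile duct cells was not tested.

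GSTK1 (Entrez gene 613498, chr4:107467914-107473284) was the steadiest of the 10 genes. It had 116, 103, 97.1, 115 and 104 CPM in the CON samples and 115, 94.9, 92.9, 107 and 145 CPM in the MET samples. Only MET replicate 6 stood above the rest. The means were 107 ± 8.36 and 111 ± 21.0 CPM, and the log2 fold change of 0.04 over the 12 libraries had an interval of -0.21 to 0.28 (edgeR adjusted p = 0.894, and 0.893 over the 10 samples).

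MGST1 (Entrez gene 493719, chr5:93925155-93950175) had 273, 379, 242, 272 and 231 CPM in the CON samples and 349, 288, 331, 198 and 189 CPM in the MET samples. The highest value was in CON and the lowest in MET, and the means were 279 ± 58.9 and 271 ± 74.2 CPM. Its log2 fold change was 0.03 over the 12 libraries (interval -0.36 to 0.42, edgeR adjusted p = 0.952) and -0.04 over the 10 samples (edgeR adjusted p = 0.936). MGST2 (615552, chr17:18331272-18369376) had 58.9 to 85.3 CPM in CON and 66.7 to 123 CPM in MET, where replicate 4 was the highest. Its log2 fold change was 0.11 over the 12 libraries, with an interval of -0.23 to 0.44 and an edgeR adjusted p of 0.743 (0.652 over the 10 samples). For GSTK1 and both microsomal genes, the intervals over the 12 libraries and over the 10 samples left room for a difference of at most 0.56 on the log2 scale in either direction.

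The spread between samples of the same diet differed widely among the transferases. The SD of log2 CPM within diets, over the 10 samples, had a median of 0.289 over all genes tested. GSTO1 had an SD of 1.11 and GSTA1 of 0.979, which placed them above 98.1 and 97.2% of all genes tested. GSTP1, GSTA2, GSTM1, GSTA4 and GSTM3 followed with 0.733, 0.720, 0.664, 0.636 and 0.513. In all, 7 of the 10 transferases were above the 80th percentile, whereas MGST1 with 0.354, MGST2 with 0.295 and GSTK1 with 0.199 were at the 64.3, 51.4 and 23.2 percentiles.

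Single samples carried much of this spread. Without CON replicate 2 the SD of GSTO1 was 0.356, without MET replicate 5 that of GSTA1 was 0.519, and without MET replicate 4 that of GSTA2 was 0.458. With each gene's most distant sample left out in turn, GSTA1, GSTM1 and GSTP1 stayed above the 80th percentile of the SDs of all genes over 10 samples. GSTP1 rested on only 5 to 55 reads per sample, and the part of counting noise in its SD was not tested. The highest sample had 42.8 times the CPM of the lowest for GSTO1, 10.4 times for GSTA1 and 5.39 times for GSTA2, but 1.56 times for GSTK1. Among these 10 genes and over all samples, the wide spread was in those of the alpha, mu, omega and pi classes. GSTK1, MGST1 and MGST2 varied less. The second pi gene, LOC281806, which is not among the 10, had an SD of 0.323, at the 58.1 percentile.

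**Figure D4:**
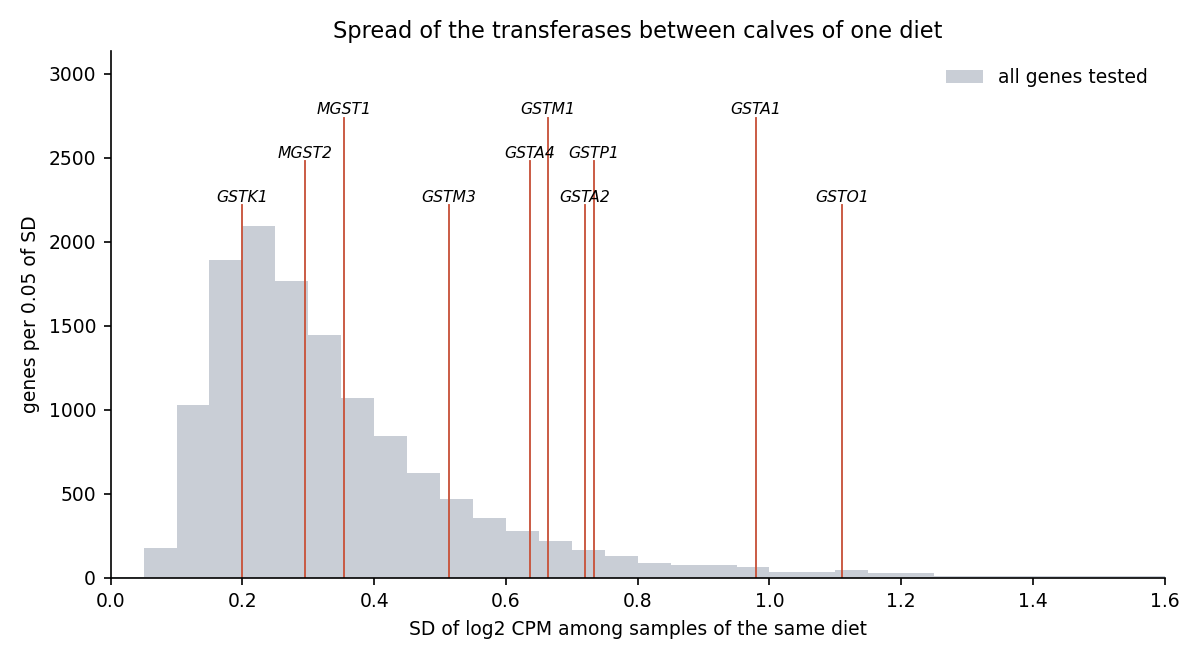
Number of genes tested per 0.05 of the SD of log2 CPM among samples of the same diet (gray bars), with a line at the SD of each transferase; the heights of the lines only separate the names. GSTO1 at 1.11 and GSTA1 at 0.979 lie in the right tail and GSTK1 at 0.199 left of the median of 0.289, and 88 genes beyond 1.6 are not shown.

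Genes that followed GSTO1 and GSTA1 across the 10 samples were named by the Pearson correlation of log2 CPM, as a description. The samples share their libraries and diets, and the genes were picked from all 13212 tested. For GSTA1 the highest were ACAT1 with an r of 0.965, CPT1B with 0.928, CPT2 with 0.924, HSDL2 with 0.899 and EPB41L1 with 0.885. ACAT1 acts in ketone body and isoleucine metabolism, and CPT1B and CPT2 carry long-chain fatty acids into mitochondria. Without MET replicate 5 their r was 0.426 to 0.886, lowest for EPB41L1 and highest for ACAT1. For GSTO1 the highest were DTD2, ZBTB24, PDSS1, ARSA and ZNF329, with an r of 0.905 to 0.919, and without CON replicate 2 their r was 0.610 to 0.746.

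Other transferases and related membrane proteins were counted from a list of 16, of which 15 were matched and 10 tested. None passed an adjusted p of 0.10 in either fit, and the lowest edgeR adjusted p over the 12 libraries was 0.424. GSTZ1, the zeta enzyme that acts in tyrosine breakdown, had 387 ± 82.1 CPM in CON and 428 ± 35.4 CPM in MET. GSTA5, GSTO2, HPGDS, LTC4S and ALOX5AP were below the filter on low counts. The median log2 fold change of the 10 genes tested was 0.095 over the 12 libraries.

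Genes that make and recycle glutathione were read from a list of 13, of which 12 were tested and 1 fell over the 12 libraries, against 4.41% of all genes called in either direction. GCLM, the regulatory subunit of glutamate cysteine ligase, which limits the rate of glutathione synthesis, had 49.1 ± 6.23 CPM in CON and 36.8 ± 3.94 CPM in MET (SD, n = 5 each). Its log2 fold change was -0.41 over the 12 libraries (SE 0.10, edgeR adjusted p = 0.0719) and -0.42 over the 10 samples (edgeR adjusted p = 0.177), and the diets overlapped. The catalytic subunit GCLC had 61.7 ± 21.9 and 48.6 ± 17.3 CPM (edgeR adjusted p = 0.694, and 0.606 over the 10 samples). The median log2 fold change of the 12 genes was 0.01. None of the 11 tested genes of conjugate export and mercapturate formation passed, and their median was 0.033.

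Transcription factors that induce transferases, with their partners, gave 0 calls by edgeR among 12 genes tested, with a p of 0.05 or less before adjustment for 2 over the 12 libraries, where 20.5% of all genes reached it, and for 3 over the 10 samples, where 16.4% did, and a median log2 fold change of -0.122. In 2 of them every MET sample was below every CON sample, where the diets did not overlap in either direction at 3.71% of all genes tested. NFE2L2 had 104 ± 11.5 CPM in CON and 86.5 ± 4.47 CPM in MET, with an edgeR adjusted p of 0.101 in the 12 libraries and 0.255 in the 10 samples. ARNT, the dimer partner of the receptor AHR, had 11.8 ± 1.32 and 7.44 ± 2.47 CPM, with an edgeR adjusted p of 0.134 and 0.197. Of 14 other NFE2L2 target genes tested, none passed by edgeR, 2 reached p of 0.05 or less before adjustment in the 12 libraries, against the same 20.5% of all genes, and the median log2 fold change was 0.005.

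Zonation of the lobule was read because several transferases differ between its zones. Of 11 pericentral genes tested, none passed, and the median log2 fold change was -0.269, with 10 below 0 and 1 above. Of 11 periportal genes tested, PCK1 and ASL fell over the 12 libraries by edgeR, against 4.41% of all genes called in either direction, none rose, none passed over the 10 samples, and the median was -0.257. The hepatocyte markers had a median of -0.188, with 0 of 10 called, and other cell types had medians on both sides of 0, from -0.340 for stellate cells and fibroblasts to 1.152 for neutrophils. The share of hepatocyte RNA in each biopsy and its part in the levels of the transferases were not tested.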

How the data were processed

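The authors aligned single-end reads of poly(A) RNA, from a strand-specific library kit, to bovine genome build UMD 3.1.1 by STAR 2.5.3a and assigned them to genes with featureCounts (Subread 1.5.2), without reads that mapped to more than 1 place or overlapped more than 1 gene. The deposited values were raw counts per gene (Entrez ID) in each library, not normalized. Gene symbols were taken from the RefSeq gene table of ARS-UCD2.0, and coordinates from the deposited files. Diet and replicate number came from the labels. Rows without an Entrez ID, 22 in each file and 0.0838% of reads, were left out of library sizes and tests.

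Genes were kept by edgeR's filter (minimum count 10, minimum total 15). Diets were compared with edgeR 4.0.16 in R 4.3.3, by the quasi-likelihood test with TMM normalization and diet alone in the model, over 12 libraries and over 10 samples, in which the reads of near-identical libraries were summed. The p-values were adjusted by the Benjamini-Hochberg method over 13212 genes, with a threshold of 0.10. CPM of a sample is the mean of its libraries, and log2 CPM used a prior count of 2. The SE of a log2 fold change was its size divided by the square root of F. On counts simulated for the 12 libraries over 13212 genes, edgeR recovered 83 of 100 genes changed by 1 on the log2 scale and 97 of 100 changed by 2, and 17 unchanged genes were called. For the 10 samples these numbers were 69, 98 and 13. Simulated libraries were drawn independently, without near-identical pairs. The numbers for 12 libraries therefore do not describe the power or error rate of the real fit. DESeq2 1.42.0, limma 3.58.1 with voom, other scalings and filters, a gene length correction, a replicate block and leaving out each library were alternatives.

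The transferases and all gene lists were chosen with earlier results of these data known. All 10 transferases are named with their values. Genes of other lists are named where they passed the threshold over 12 libraries or did not overlap between diets, and otherwise mostly counted, and 5 genes most like GSTO1 and the transferase with the highest level are named. GCLC, GSTZ1, LOC281806, LOC783879 and the genes beside a transferase on its chromosome were named in addition, after their values were seen. RNA was from separate calves per the labels, but the near-identical libraries leave that uncertain for 2 pairs.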

Additional observations from a re-analysis of the deposited data

Results flagged for a closer look

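GSTO1 in CON replicate 2 stood apart from the other 4 CON samples, with 0.503 CPM from 4 reads against 5.59 to 7.99 CPM. On log2 CPM, its gap to the nearest sample was 0.86 of the range of the CON samples, above Dixon's critical value of 0.71 for 5 samples. On CPM itself the gap is a smaller part of the range, below that value. Of the 20 groups looked at on log2 CPM, 10 genes in each of 2 diets, this was the only one with such a sample, and chance alone gives about 1 in 20. Which samples stand apart in this way depends on the scale. Leaving CON replicate 2 out lowered the log2 fold change of GSTO1 from 1.51 to 1.27 over the 12 libraries and from 1.56 to 1.28 over the 10 samples.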

How the results depend on the processing

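Over the 12 libraries, GSTO1 kept its direction under all 23 alternatives, with a log2 fold change of 1.27 to 1.76, and passed the edgeR threshold or that of the other tool in 16 of them. The count of transferases called fell from 1 to 0 with library size as the only scaling (GSTO1 edgeR adjusted p = 0.101), with the gene length trend removed (0.111) and with a replicate block (0.155). Leaving out 1 library gave a count between 0 and 1, and it was 0 without CON replicate 1, CON replicate 4, MET replicate 4 or MET replicate 6 (edgeR adjusted p of GSTO1 0.107 to 0.132). The cause was not tested. Over the 10 samples, DESeq2 called 1 transferase, GSTO1 (adjusted p = 0.0253), where edgeR called 0 (DESeq2 called 4.72% of all genes there), and the adjusted p of GSTO1 ranged from 0.0253 to 0.279 over 20 alternatives.

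Replicate numbers did not pair the samples: the correlation of deviations between same-numbered CON and MET libraries was -0.190 to 0.148. With the replicate block the GSTO1 log2 fold change was 1.59, and 6 of all genes were called, where 583 were called without it.

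No other transferase was called under any alternative. Differences near 0 changed sign. Over the 12 libraries these were GSTM1 with voom (0.007) and with the replicate block (0.018), MGST1 with voom (-0.002) and GSTK1 with the length trend removed (-0.004). Leaving out 1 library gave -0.288 to 0.215 for GSTM1, -0.050 to 0.137 for MGST1, -0.057 to 0.084 for GSTK1 and -0.046 to 0.158 for MGST2, and over the 10 samples -0.467 to 0.110 for GSTM1, -0.127 to 0.087 for MGST1 (-0.152 without MET replicates 1 and 3 together) and -0.069 to 0.106 for GSTK1.

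The count of all genes called over the 12 libraries was 107 with library size only, 1314 with DESeq2, 238 without a filter, 247 with the length trend removed, 26 without CON replicate 1 and 35 without CON replicate 4. GSTP1, with 226 reads in all, and GSTO1 in CON replicate 2, with 4, rested on the fewest reads.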

Other observations

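GSTT4 and GSTA3, which are not among the 10 transferases described, varied widely between samples, and they are named after their values were seen. GSTT4, of the theta class, had 17.5, 0.503, 6.29, 12.4 and 1.04 CPM in the CON samples of replicates 1 and 4, 2, 3, 5 and 6, and 0.471, 0.488, 12.7, 17.1 and 22.8 CPM in the MET samples of replicates 1 and 3, 2, 4, 5 and 6. Samples of each diet were thus either at or below 1.04 CPM or at or above 6.29 CPM, with 2 low samples in CON and 2 in MET. The log2 fold change of GSTT4 was -0.05 over the 12 libraries (edgeR adjusted p = 0.984) and 0.44 over the 10 samples (edgeR adjusted p = 0.862).

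GSTA3, which lies between GSTA1 and GSTA4 and in other species takes part in steroid hormone synthesis, had 0.104 CPM, from 1 read, to 6.16 CPM in CON and 0.345 to 10.7 CPM in MET. The highest sample, MET replicate 6, was also the highest in MET for GSTA2, GSTM1 and GSTK1, and the lowest in MET for MGST1. For GSTA3 the log2 fold change was 0.21 over the 12 libraries (edgeR adjusted p = 0.918, and 0.926 over the 10 samples).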
